A study of Mus musculus with 30 samples.

Results

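Tudor domain proteins of the germ line are read here through 8 genes of the mouse, Tdrd1, Tdrd3, Tdrd5, Tdrd6, Tdrd7, Tdrd9, Tdrkh and Rnf17. They were taken by symbol from a deposited table of 20889 gene symbols, and each of the 8 had a value above 0 in each of the 11 columns of the table. The values are FPKM, fragments scaled for transcript length and library size, from RNA sequencing of germ cells that were enriched from the mouse testis between birth and postnatal day 14. Each column is 1 group with 1 value per gene, so no value here has a replicate error, and no test between groups was run.

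All groups came from C57BL/6 mice and carry the cell type label spermatogonia, and no genotype other than the GFP reporters, and no treatment, is given. P0 THY1, P7 THY1, P12 THY1 and P14 THY1 are cells of postnatal days 0, 7, 12 and 14 that were held on magnetic beads by an antibody to CD90.2, which is THY1, a surface protein of undifferentiated spermatogonia. P7 KIT, P12 KIT and P14 KIT are cells held in the same way by an antibody to CD117, which is KIT, the receptor of differentiating spermatogonia. P7 ID4-GFP is a group of cells sorted by flow cytometry from mice with an Id4 reporter, and P0 and P7 OCT4-GFP are groups sorted in the same way with an Oct4 reporter, both genes of early germ cells. P7 VASA THY1 is labelled with both VASA, a germ cell helicase, and THY1, but the protocol names VASA-GFP cells at day 0 alone, so the age of that group is uncertain. Behind P7 KIT, P12 KIT and the THY1 groups of days 0, 7 and 12 stand 2 libraries each, given as the authors' value with no spread, and behind each of the other 6 groups stands 1 library. Whether libraries or animals were pooled before sequencing is not given in the sources used here.

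A Tudor domain is a small fold that grips methylated arginine or lysine. In germ cells, PIWI proteins carry symmetrically methylated arginines in their tails, and Tudor proteins bind these and gather PIWI proteins, helicases and nucleases into granules beside the mitochondria. There the precursors of piRNAs, small RNAs that guide PIWI proteins against transposons, are cut, trimmed and loaded. The granules are known as intermitochondrial cement in prospermatogonia and spermatocytes and as the chromatoid body in spermatids, and loss of most of these proteins leaves male mice sterile. Tdrd3 differs from the other members in being known mainly outside germ granules: its protein reads arginine methylation at active genes and partners the topoisomerase TOP3B in many tissues.

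The sequence in front of a gene start is the stretch that its promoter lies in, and 6 of the 8 genes matched a table of such windows from RefSeq (build GRCm38.p6). Each window is 300 bases long, 250 before the start and 50 after it. The windows of Tdrd1 and Tdrd5 are shown because these genes had the most similar levels over the groups, that of Tdrkh because it followed another order, and that of Tdrd9 because it holds the same E-box letters as Tdrd1. Of 3 Tdrd1 entries the one nearest the 5′ end of the gene was taken. The start used lay 38 bases from that end for Tdrd1, 71 for Tdrd9 and 1 for Tdrkh, but 956 for Tdrd5. They run 5′ to 3′ on the strand of the gene, at chr19:56825959-56826258 (plus strand) for Tdrd1, chr1:156303299-156303598 (minus strand) for Tdrd5, chr12:111971309-111971608 (plus strand) for Tdrd9 and chr3:94412994-94413293 (plus strand) for Tdrkh. Capitals mark every match, on either strand, to the E-box CACGTG, the CCAAT box CCAAT or the GC box GGGCGG.
Tdrd1: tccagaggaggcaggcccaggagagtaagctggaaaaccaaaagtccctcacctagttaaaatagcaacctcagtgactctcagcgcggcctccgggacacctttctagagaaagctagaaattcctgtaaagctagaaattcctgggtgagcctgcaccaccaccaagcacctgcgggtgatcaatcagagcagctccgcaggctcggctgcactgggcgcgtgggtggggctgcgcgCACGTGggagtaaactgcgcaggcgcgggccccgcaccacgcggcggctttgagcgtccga
Tdrd5: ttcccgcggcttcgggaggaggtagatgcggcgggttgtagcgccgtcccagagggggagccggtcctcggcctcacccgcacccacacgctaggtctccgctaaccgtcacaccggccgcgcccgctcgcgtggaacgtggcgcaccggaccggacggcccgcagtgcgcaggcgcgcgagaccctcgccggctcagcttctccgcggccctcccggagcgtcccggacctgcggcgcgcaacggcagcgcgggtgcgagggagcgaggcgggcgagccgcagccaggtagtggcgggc
Tdrd9: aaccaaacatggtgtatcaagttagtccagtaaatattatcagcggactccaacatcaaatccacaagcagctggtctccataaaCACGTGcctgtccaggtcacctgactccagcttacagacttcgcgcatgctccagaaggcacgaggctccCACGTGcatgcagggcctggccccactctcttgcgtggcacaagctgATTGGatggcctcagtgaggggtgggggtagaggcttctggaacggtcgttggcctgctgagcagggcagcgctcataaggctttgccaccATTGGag
Tdrkh: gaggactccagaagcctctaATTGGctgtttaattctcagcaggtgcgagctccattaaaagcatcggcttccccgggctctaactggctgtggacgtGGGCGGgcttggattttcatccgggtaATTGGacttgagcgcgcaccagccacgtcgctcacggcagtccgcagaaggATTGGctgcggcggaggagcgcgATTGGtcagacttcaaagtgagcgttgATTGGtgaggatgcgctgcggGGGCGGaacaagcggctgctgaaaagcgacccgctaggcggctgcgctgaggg

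The 4 windows differed in what they held. Tdrd1 had 1 E-box, 11 bases before the start, Tdrd9 had 2, and Tdrd5 and Tdrkh had none. Over all 32851 windows of the table, 7.15% held CACGTG. Tdrkh had 5 CCAAT boxes and 2 GC boxes, and Tdrd9 had 2 CCAAT boxes, where 37.4% of all windows held CCAAT and 35.7% held GGGCGG. Tdrd5 matched none of these motifs and was rich in CpG, with 48 CpG and 76.0% G and C, against a median of 7 CpG and 52.7% over all windows. The MYB motif AACNGTT, which 4.45% of all windows held, was in no window of a matched member, and that says only that the letters are not in these 300 bases. The motifs were chosen after values were seen, none of the matches overlap in the windows shown, and a match is not a binding site.

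The groups differed in transcripts that no Tudor gene supplies, and these values belong beside every level below. Summed FPKM of 8 germ cell markers ran from 762 in P0 THY1 to 2401 in P14 THY1, so germ cell transcripts were present throughout. Summed FPKM of 7 fibroblast and stroma markers ran from 25.8 in P7 ID4-GFP to 6728 in P0 THY1, and that of 10 genes of pachytene spermatocytes and later cells from 28.6 in P7 ID4-GFP to 3761 in P14 THY1. Those 10 genes stood at 60.5 FPKM in P12 THY1 and 176 FPKM in P14 KIT, so P14 THY1 held transcripts of germ cells later than its label names. Of 6 spermatid markers, Prm1, Prm2, Tnp2 and Acrv1 were at 0 in several groups, and the summed level was 4.52 to 20.9 FPKM in every group but P7 THY1, where it was 224 FPKM. Sums ran from 12.4 to 841 FPKM for 9 Sertoli markers, from 3.13 to 1129 FPKM for 7 Leydig markers and from 3.56 to 288 FPKM for 7 macrophage markers. In such mixed samples, fewer cells of a type and less RNA per cell cannot be told apart. Read depth is unknown, and relative steps among the lowest values put a fragment at 0.957 to 2.04 times its worth in P14 THY1, with P7 THY1 at an uncertain 3.72 times.

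Besides the FPKM as deposited, levels were read on 3 other scales. Quantile normalization gives every group the same distribution of values. A germ cell scale divides each value by the geometric mean of Ddx4, which encodes VASA, and Dazl, an RNA-binding protein gene of germ cells. A second germ cell scale, added after the data were seen, divides by Ddx4 alone. Ddx4 is itself a granule gene and was higher in P14 THY1 (248 FPKM) than in P12 THY1 (113 FPKM), whereas Dazl was lower there (388 against 475 FPKM). Across the 11 groups the 8 Tudor genes summed to 194 FPKM in P0 THY1, the lowest, and 675 FPKM in P14 THY1, the highest. As deposited, 6 of the 8 genes had their highest level in P14 THY1, all but Tdrd3 and Tdrkh. The number was 5 of 8 on the Ddx4 and Dazl scale, where Tdrd9 was highest in P0 THY1, and 3 of 8 on the scale of Ddx4 alone, namely Tdrd1, Tdrd5 and Tdrd6.

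**Figure D1:**
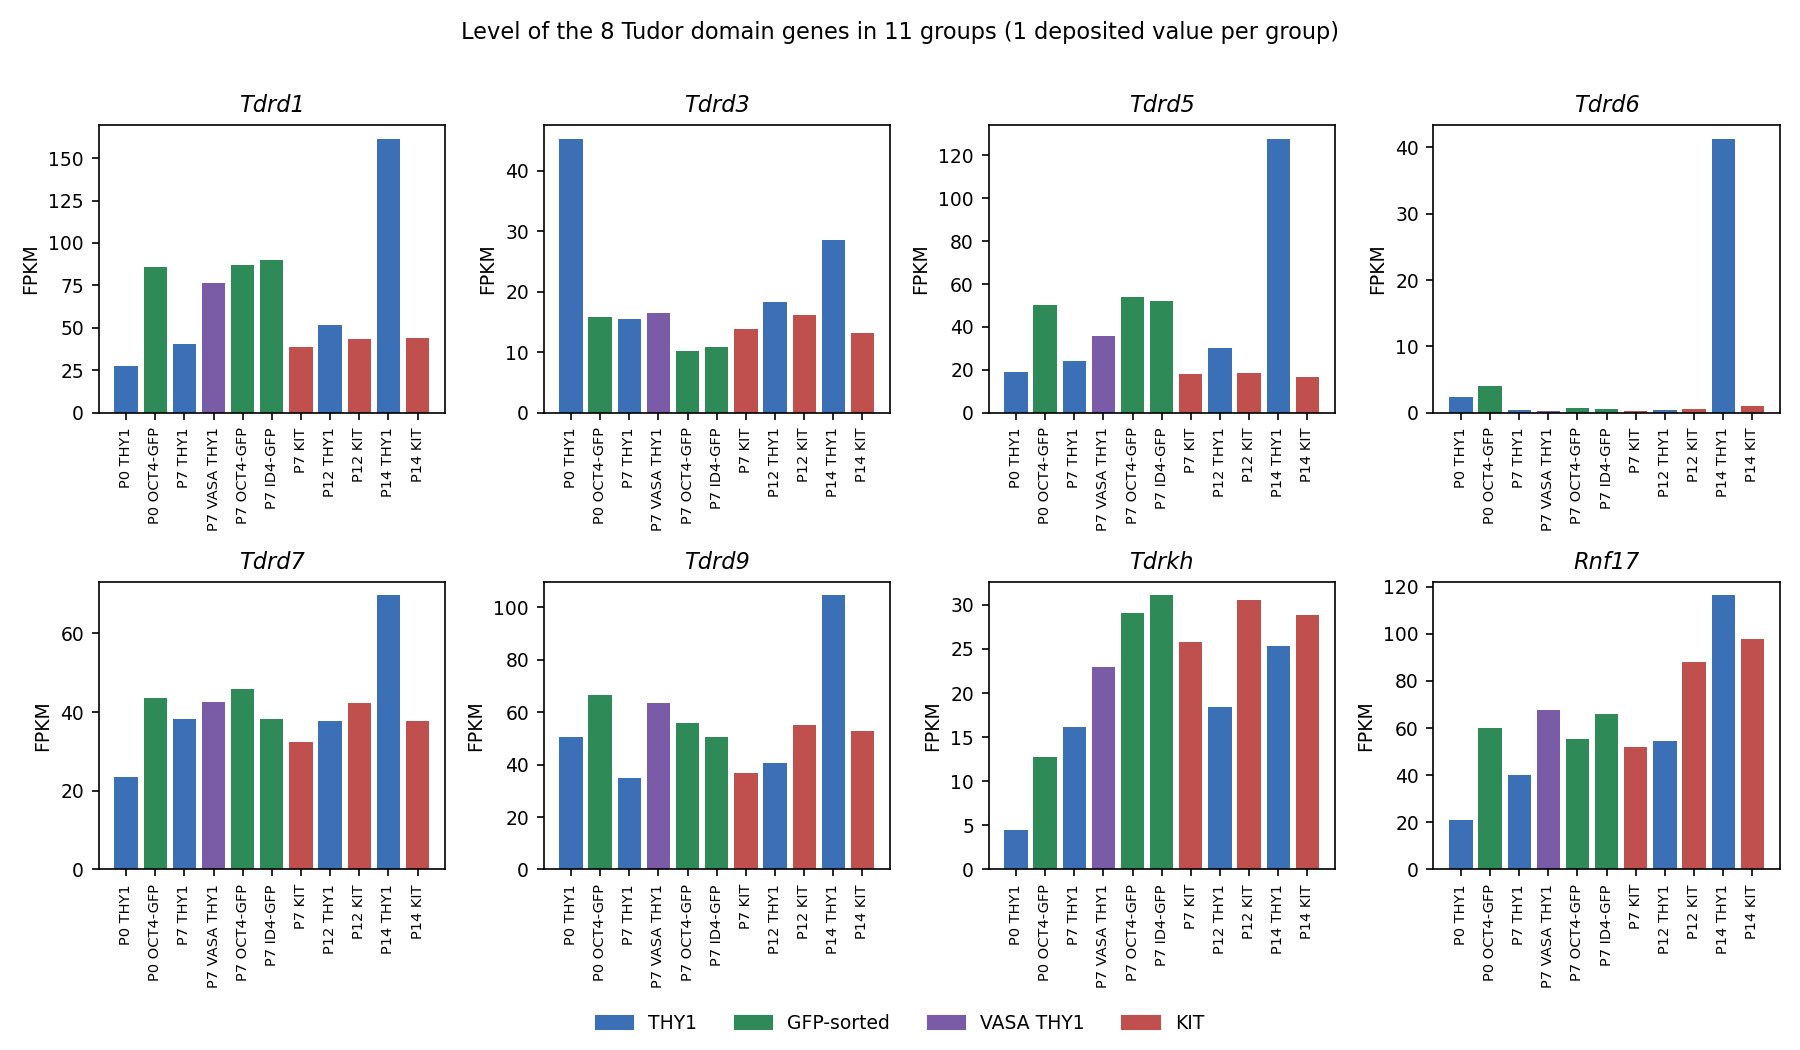
Deposited FPKM (vertical axis, linear from 0, a separate scale for each gene) of the 8 Tudor domain genes in 11 groups, 1 bar per group, coloured by how the cells were taken, with no error bars because each group has 1 value. Tdrd6 is a single tall bar of 41.3 FPKM in P14 THY1, Tdrd1 and Tdrd5 share 1 outline, Tdrd3 peaks in P0 THY1, and Tdrkh has no peak in P14 THY1.

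Tdrd1 encodes a scaffold with a MYND zinc finger and several Tudor domains that holds PIWIL2 in the intermitochondrial cement. It stood at 27.3, 40.5, 51.7 and 161 FPKM in P0, P7, P12 and P14 THY1. In P7, P12 and P14 KIT it was 38.5, 43.2 and 44.0 FPKM. Among the sorted groups it was 85.8 FPKM in P0 OCT4-GFP, 86.9 in P7 OCT4-GFP and 89.9 in P7 ID4-GFP, and P7 VASA THY1 had 76.3 FPKM. Thus P14 THY1 was the highest at 1.79 times the next group, the sorted groups lay close together in second place, and the KIT groups and P0 and P7 THY1 formed the low end. The ratio of the highest to the lowest value was 5.91.

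Tdrd5, which encodes a LOTUS and Tudor protein needed for transposon silencing and for the chromatoid body, had the same outline. It stood at 19.2, 24.3, 30.1 and 128 FPKM in P0, P7, P12 and P14 THY1. The KIT groups of days 7, 12 and 14 had 17.9, 18.3 and 16.6 FPKM, the 3 lowest values of this gene. P7 VASA THY1 had 35.7 FPKM, and the sorted groups had 50.1 (P0 OCT4-GFP), 54.2 (P7 OCT4-GFP) and 52.2 FPKM (P7 ID4-GFP). Over the 11 groups, Pearson's r between log2(FPKM + 1) of Tdrd1 and of Tdrd5 was 0.95, and without P14 THY1 it was 0.91. The E-box of the Tdrd1 window was not shared by Tdrd5.

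Tdrd6 encodes a large protein of repeated Tudor domains that builds the chromatoid body of spermatids. At 41.3 FPKM in P14 THY1 it stood far above its other values. The day 0 groups came next, with 3.98 FPKM in P0 OCT4-GFP and 2.38 FPKM in P0 THY1, and P14 KIT had 1.01 FPKM. The other 7 groups lay between 0.290 FPKM in P7 VASA THY1 and 0.643 FPKM in P7 OCT4-GFP. Its highest value was 142 times its lowest, the widest range of the 8 genes, and the low end rests on values that few fragments support. The sum of the pachytene and later markers was highest in the same group, and its part in the Tdrd6 level was not tested. Over the 11 groups r between Tdrd6 and that sum, both on a log2 scale, was 0.85, and without the 2 groups of day 14 it was -0.07.

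Tdrd7, a LOTUS and Tudor gene whose protein remodels the chromatoid body and which is also known from the eye lens, varied little. It stood at 23.4, 38.2, 37.8 and 69.7 FPKM in P0, P7, P12 and P14 THY1 and at 32.5, 42.2 and 37.6 FPKM in P7, P12 and P14 KIT. P0 OCT4-GFP had 43.6 FPKM, and at day 7 the OCT4-GFP, ID4-GFP and VASA THY1 groups had 45.9, 38.2 and 42.6 FPKM. Apart from the extremes, P0 THY1 and P14 THY1, its 9 other values lay within 32.5 to 45.9 FPKM. Its range was 2.98-fold, near that of Tdrd9 (2.99-fold) and below those of the other 6 genes, and with no replicates the order within those 9 groups cannot be told from noise.

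Tdrd9 encodes a helicase with a Tudor domain that works with PIWIL4 in silencing transposons of fetal germ cells. It stood at 50.7, 35.0, 40.5 and 105 FPKM in P0, P7, P12 and P14 THY1. The KIT groups had 36.9, 55.1 and 53.0 FPKM at days 7, 12 and 14. P0 OCT4-GFP had 66.7 FPKM, P7 VASA THY1 63.4 FPKM, P7 OCT4-GFP 55.9 FPKM and P7 ID4-GFP 50.7 FPKM. It was the highest of the 8 genes in P0 THY1, where Tdrkh and Tdrd6 were the lowest. As a percentage of the Ddx4 and Dazl mean it was 39.2 in P0 THY1, 33.7 in P14 THY1 and 12.96 to 22.5 elsewhere.

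Tdrkh encodes a Tudor and KH domain protein that sits on the mitochondrial surface and brings PIWI proteins to the nuclease that trims piRNA ends. Its lowest value was 4.53 FPKM in P0 THY1, followed by 12.7 FPKM in P0 OCT4-GFP. The later THY1 groups had 16.1, 18.4 and 25.3 FPKM at days 7, 12 and 14, and the KIT groups had 25.8, 30.5 and 28.9 FPKM. P7 VASA THY1, P7 OCT4-GFP and P7 ID4-GFP had 22.9, 29.0 and 31.1 FPKM. Both day 0 groups were thus the low end, each KIT group exceeded the THY1 group of its age, and P14 THY1 was not set apart. The day 14 excess of KIT turned into a lower value on the Ddx4 and Dazl scale, whereas the excess at days 7 and 12 did not turn on any scale.

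Rnf17 encodes a RING finger and Tudor protein that forms granules in spermatocytes and spermatids and restrains piRNA amplification in meiosis. It stood at 21.0, 39.9, 54.4 and 116 FPKM in P0, P7, P12 and P14 THY1. The KIT groups had 51.9, 87.9 and 97.9 FPKM at days 7, 12 and 14. P0 OCT4-GFP had 60.3 FPKM, and at day 7 the OCT4-GFP, ID4-GFP and VASA THY1 groups had 55.4, 65.9 and 67.8 FPKM. It was the highest of the 8 genes in P7, P12 and P14 KIT and in P12 THY1. Pearson's r between Rnf17 and the summed level of the 8 germ cell markers was 0.93 over the 11 groups, and 0.82 without P0 THY1 and P14 THY1. With the sum of 10 meiotic prophase markers it was 0.88, and 0.88 without P12 KIT and P14 KIT. In each case the 2 groups left out were those farthest from the median of the sum.

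As deposited, Tdrd3 had its peak in another group than the other 7 genes. On the Ddx4 and Dazl scale Tdrd9 shared it, and on that of Ddx4 alone Tdrd7 and Tdrd9 did. The highest value of Tdrd3 was 45.3 FPKM in P0 THY1, where 4 of the other 7 genes had their lowest as deposited and none of them on either germ cell scale. P14 THY1 followed with 28.5 FPKM, and P7 and P12 THY1 had 15.6 and 18.3 FPKM. The KIT groups had 13.9, 16.2 and 13.1 FPKM at days 7, 12 and 14. P0 OCT4-GFP and P7 VASA THY1 had 15.9 and 16.5 FPKM, and the lowest values were 10.2 FPKM in P7 OCT4-GFP and 10.8 FPKM in P7 ID4-GFP. The 2 groups with most Tdrd3 also had the highest sums of fibroblast and stroma markers, 6728 and 1326 FPKM. Across the 11 groups r with that sum was 0.88, and 0.68 without P0 THY1 and P7 ID4-GFP. These points share their libraries, and the part of other cells in the Tdrd3 level was not tested.

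**Figure D2:**
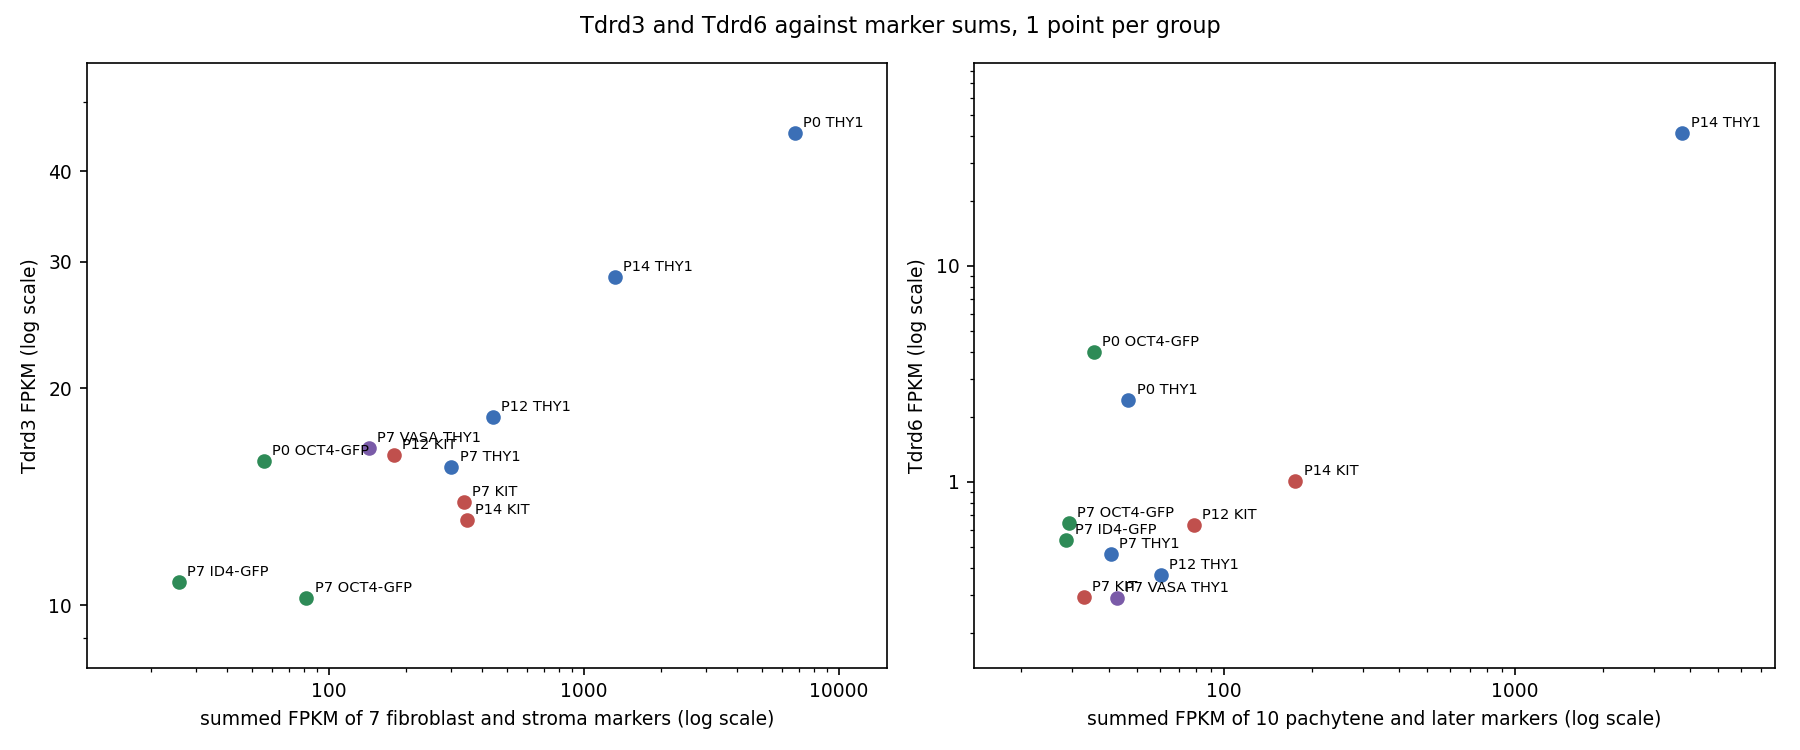
Level of Tdrd3 against the summed FPKM of 7 fibroblast and stroma markers (left) and of Tdrd6 against the summed FPKM of 10 pachytene and later markers (right), with 1 point per group and log scales on all axes. P0 THY1 is at the top right for Tdrd3 (45.3 FPKM), P14 THY1 is at the top right for Tdrd6 (41.3 FPKM), and the remaining Tdrd6 points show no slope.

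The step from P12 to P14 THY1 cells asks what changed late in the first wave of spermatogenesis. Differences are of log2(FPKM + 1), which understates the change of low genes, and a gene was counted at 4-fold, a difference of 2 or more with at least 5 FPKM in the higher group. Of the 8 Tudor genes 2 were higher in P14 THY1 under this rule, Tdrd6 at 41.3 against 0.370 FPKM (difference 4.95) and Tdrd5 at 128 against 30.1 FPKM (2.05). Of all 20889 genes 3.35% were 4-fold higher. At 2-fold, a difference of 1 or more with the same FPKM minimum, 5 of 8 were higher, the other 3 being Tdrd1 (1.62), Tdrd9 (1.35) and Rnf17 (1.08), against 8.06% of all genes. Tdrd9 and Rnf17 came to 0.94 and 0.67 on the Ddx4 and Dazl scale, under 2-fold, and Rnf17 to 0.88 with quantile normalization. On the scale of Ddx4 alone Tdrd1, Tdrd9 and Rnf17 came to 0.51, 0.24 and -0.03, so Tdrd1 was under 2-fold there too. The median difference of the 8 genes was 1.21, and that of the 14200 genes that reached 1 FPKM in 2 or more groups was -0.12. On the Ddx4 and Dazl scale the medians were 0.80 and -0.45, with all 8 genes still above 0. On the scale of Ddx4 alone they were 0.10 and -1.01, and Tdrd3, Tdrd7, Tdrkh and Rnf17 turned to below 0. Tdrd5 passed the 4-fold rule as deposited but not on any other scale (quantile 1.95, Ddx4 and Dazl 1.64, Ddx4 alone 0.94), and Tdrd6 passed on all of them. Other transcripts moved in the same step, and their part was not tested: pachytene and later markers summed to 60.5 FPKM in P12 and 3761 FPKM in P14 THY1, Sertoli markers to 841 and 25.8 FPKM, and fibroblast and stroma markers to 439 and 1326 FPKM.

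At day 14 the KIT cells were set against the same P14 THY1 library, so this comparison shares a group with the one before, and the opposite signs are not independent of it. Tdrd6 was lower in P14 KIT (1.01 against 41.3 FPKM, difference -4.40), as was Tdrd5 (16.6 against 128 FPKM, -2.88), so 2 of 8 were 4-fold lower, where 3.16% of all genes were. On the Ddx4 and Dazl scale Tdrd1 passed too, at -2.20, for 3 of 8. At 2-fold as deposited, Tdrd1 (-1.85) and Tdrd3 (-1.06) joined them, 4 of 8 against 7.51% of all genes. On the scale of Ddx4 alone Tdrd3 came to -0.53, under 2-fold. Tdrd9 and Tdrd7 had differences of -0.97 and -0.87, Rnf17 had -0.25, and Tdrkh had 0.18. Tdrkh turned to -0.16 on the Ddx4 and Dazl scale, and Rnf17 turned to 0.30 on that of Ddx4 alone. The median difference was -1.02 as deposited, -1.35 on the Ddx4 and Dazl scale and -0.48 on that of Ddx4 alone, beside 0.02, -0.22 and 0.43 over the 14200 genes. Levels in P14 KIT were near those of P12 KIT: none of the 8 differed at 4-fold or at 2-fold between these groups, where 1.57% and 7.86% of all genes did in either direction, and the largest difference was 0.30, of Tdrd6.

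At days 7 and 12, KIT and THY1 cells had similar levels of most Tudor genes. None of the 8 differed at 4-fold or 2-fold at day 7, where 0.359% and 2.59% of all genes did in either direction. None did at day 12 either, where 0.239% and 5.4% of all genes did. Tdrkh had the largest difference toward KIT, 0.64 at day 7 and 0.70 at day 12, with levels of 25.8 against 16.1 and 30.5 against 18.4 FPKM. Rnf17 was next, at 0.37 and 0.68. Tdrd5 had the largest difference toward THY1, -0.42 and -0.69, and was lower in KIT at all 3 ages on all 4 scales. At day 12 it reached -1.24 on the Ddx4 and Dazl scale and -1.08 on that of Ddx4 alone, past 2-fold. The signs of Tdrd9 (0.44) and Tdrd7 (0.16) at day 12 turned on the Ddx4 and Dazl scale, to -0.13 and -0.41. The median difference was -0.11 at day 7 and 0.20 at day 12, and the latter turned to -0.27 on the Ddx4 and Dazl scale and -0.10 on that of Ddx4 alone. With P7 VASA THY1 in place of P7 THY1, the day 7 difference of Rnf17 turned to -0.38 and that of Tdrkh was 0.16. In KIT against THY1 cells, Leydig markers summed to 1129 against 117 FPKM at day 7 and 224 against 85.7 FPKM at day 12. Sertoli markers summed to 213 against 375 FPKM and 299 against 841 FPKM, and the part of such cells was not tested.

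**Figure D3:**
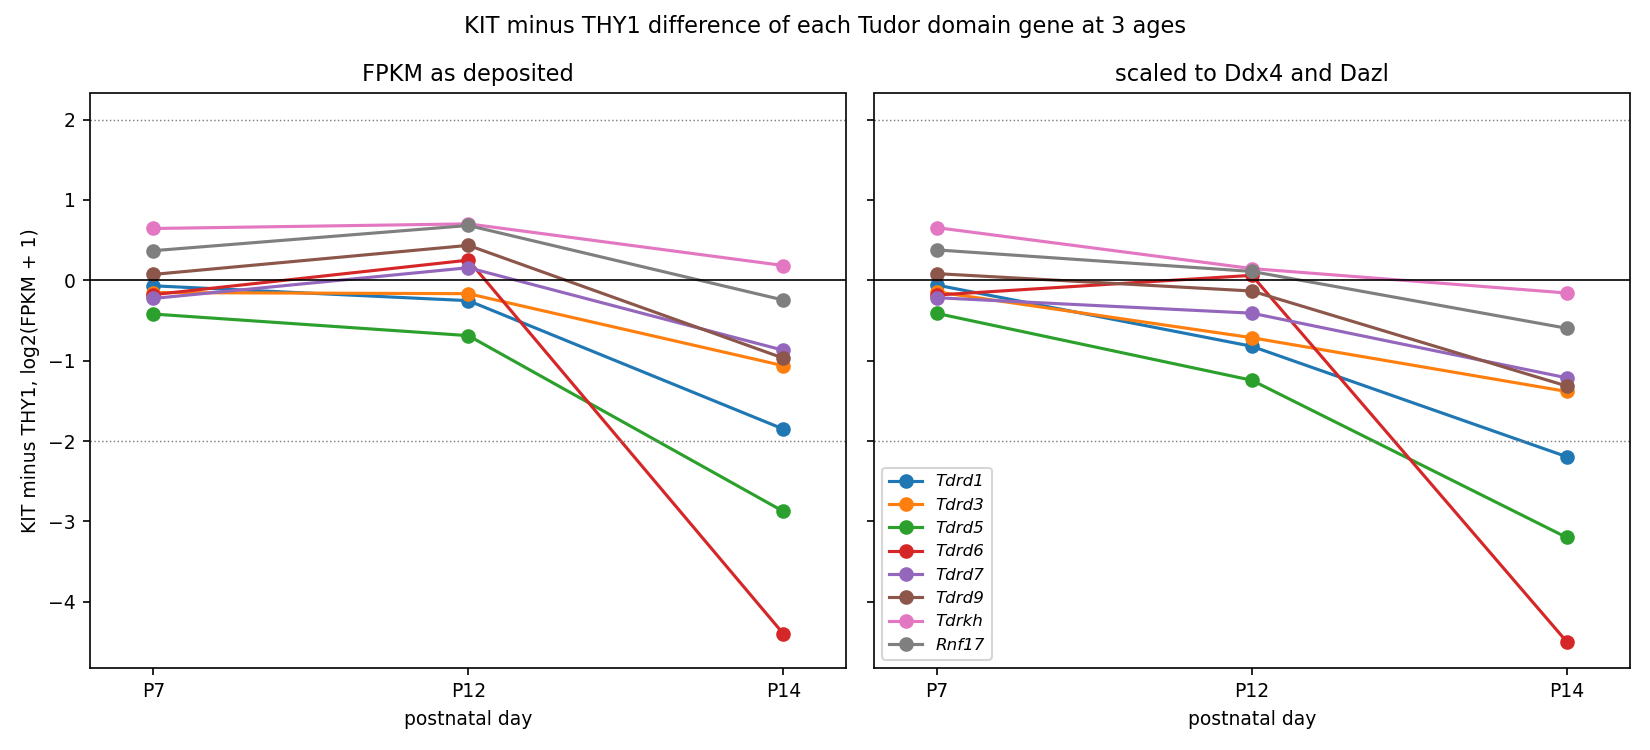
Difference of log2(FPKM + 1) between KIT and THY1 groups (vertical axis) at days 7, 12 and 14 (horizontal axis, not to scale), with 1 line per gene, as deposited (left) and scaled to Ddx4 and Dazl (right). Dotted lines mark a 4-fold difference in either direction; all 8 genes lie within 0.70 of 0 at days 7 and 12 on the left, and Tdrd6 and Tdrd5 fall below the lower line at day 14.

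Between birth and day 7 in THY1 cells, Tdrkh and Tdrd3 were the only Tudor genes counted at 2-fold, 1 in each direction. As deposited, no Tudor gene reached 4-fold, where 3.38% of all genes did in either direction. At 2-fold, Tdrkh was higher in P7 THY1 (16.1 against 4.53 FPKM, difference 1.63), where 3.3% of all genes were. Tdrd3 was 2-fold lower (15.6 against 45.3 FPKM, -1.48), as were 8.95% of all genes. Tdrd6, at 0.462 against 2.38 FPKM, had a difference of -1.21 but lay under the FPKM minimum. The directions of these 3 genes held on every scale, but Tdrkh came to 0.72 on the Ddx4 and Dazl scale and 0.89 on that of Ddx4 alone, under 2-fold. With quantile normalization Tdrkh reached 2.25, past 4-fold. Tdrd3 came to -2.53 on the Ddx4 and Dazl scale and -2.37 on that of Ddx4 alone, and Tdrd6 to -2.07 on both, past 4-fold. The directions of Tdrd1 (0.55), Tdrd5 (0.32), Tdrd7 (0.68) and Rnf17 (0.90) turned to below 0 on the Ddx4 and Dazl scale. The median moved with them from 0.44 to -0.59, and that of the 14200 genes from -0.09 to -1.04. Fibroblast and stroma markers summed to 6728 FPKM at day 0 and 302 FPKM at day 7 in THY1 cells, and their part was not tested. With P7 VASA THY1 in place of P7 THY1, Tdrkh stood at 22.9 FPKM and passed the 4-fold rule.

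From day 7 to day 12 the 8 genes differed little in either arm. In THY1 cells none passed either rule, where 0.656% of all genes passed at 4-fold and 4.04% at 2-fold, and the largest difference was that of Rnf17 (0.44). In KIT cells none passed, where 0.551% of all genes passed at 4-fold and 4.72% at 2-fold, and Rnf17 (0.75) and Tdrd9 (0.57) had the largest differences. None of those 3 differences turned on any scale. The median was 0.21 in THY1 and 0.28 in KIT cells, and the latter was -0.06 on the Ddx4 and Dazl scale. With P7 VASA THY1 in place of P7 THY1, the THY1 median turned to -0.27 and Rnf17 to -0.31.

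Cells sorted for OCT4-GFP at birth had higher FPKM of 7 of the 8 Tudor genes than THY1 cells of that day, but 6 of the 8 were lower on the Ddx4 and Dazl scale. Of the 8 genes 4 were 2-fold higher, Tdrd1 (85.8 against 27.3 FPKM, difference 1.62), Rnf17 (60.3 against 21.0, 1.48), Tdrd5 (50.1 against 19.2, 1.34) and Tdrkh (12.7 against 4.53, 1.31), where 7.68% of all genes were 2-fold higher. None of the 8 reached 4-fold, where 6.33% of all genes did in either direction. On the Ddx4 and Dazl scale these 4 stood at 0.15, 0.02, -0.11 and -0.01, and on that of Ddx4 alone all 4 were below 0. Tdrd1, for one, was 23.5% of the Ddx4 and Dazl mean in P0 OCT4-GFP and 21.1% in P0 THY1. Tdrd3 was 2-fold lower (15.9 against 45.3 FPKM, -1.46), as were 11.6% of all genes, and on the Ddx4 and Dazl scale its difference was -2.91. Summed fibroblast and stroma markers were 55.6 FPKM in P0 OCT4-GFP and 6728 FPKM in P0 THY1.

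At day 7 the sorted cells stood apart from THY1 cells in Tdrd1 and Tdrd5. Tdrd1 was 86.9 against 40.5 FPKM (difference 1.08) and Tdrd5 54.2 against 24.3 FPKM (1.13), so 2 of 8 were 2-fold higher in P7 OCT4-GFP, where 4.25% of all genes were. None reached 4-fold, where 2.19% of all genes did in either direction. The Ddx4 and Dazl scale left both at 1.02 and 1.06, and the scale of Ddx4 alone at 0.38 and 0.43. Against P7 VASA THY1 in place of P7 THY1 they were 0.18 and 0.59, and neither passed 2-fold. P7 ID4-GFP and P7 OCT4-GFP were alike, with differences between -0.26 and 0.25 for the 8 genes and none counted at 2-fold, where 0.742% of all genes were. P7 VASA THY1 lay between the sorted and the THY1 cells for Tdrd1 (76.3 FPKM) and Tdrd5 (35.7 FPKM), and none of the 8 differed from P7 THY1 at 2-fold, where 8.64% of all genes did. Between birth and day 7 within OCT4-GFP cells, Tdrkh was 2-fold higher at day 7 (29.0 against 12.7 FPKM, 1.13), where 1.13% of all genes were, and none reached 4-fold, where 0.129% did in either direction. Tdrd6, at 0.643 against 3.98 FPKM, had a difference of -1.60 under the FPKM minimum, as it did in THY1 cells. The 2 Tdrkh differences between day 0 and day 7 share no group.

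**Figure D4:**
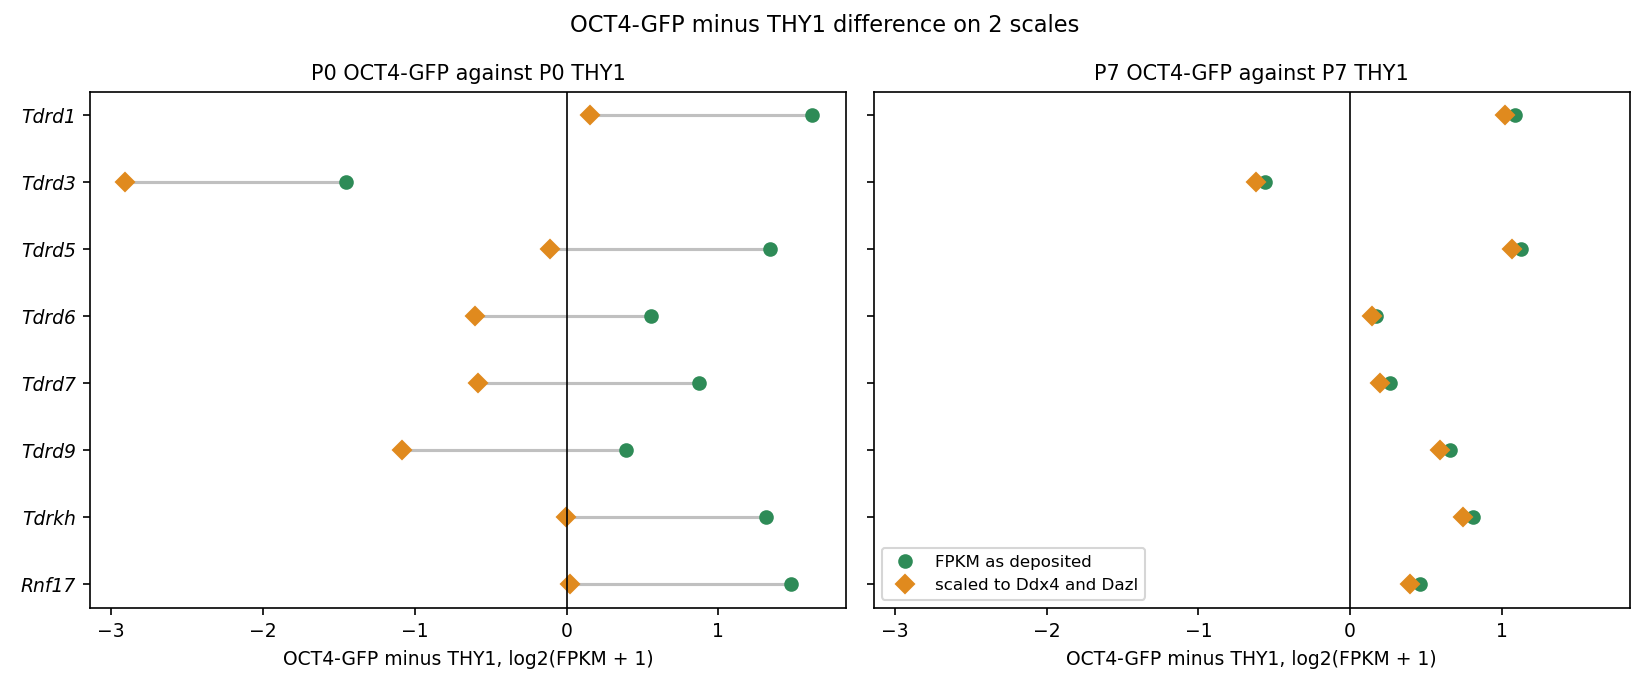
Difference of log2(FPKM + 1) between OCT4-GFP and THY1 cells (horizontal axis) for each of the 8 genes (rows) at day 0 (left) and day 7 (right), as deposited (circles) and scaled to Ddx4 and Dazl (diamonds). At day 0 the scaling moves every gene down, Tdrd1 from 1.62 to 0.15, whereas at day 7 both marks nearly coincide.

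Other genes of the pathway were read from 3 lists, as deposited and on none of the other scales. These held 19 of 20 other Tudor domain genes, 18 of 19 other granule and piRNA genes and 7 of 7 genes of symmetric arginine methylation. From P12 to P14 THY1, the granule and piRNA genes had a median of 0.95. Of all genes 3.35% were 4-fold higher in this step and 2.79% were lower. Of the 18 granule and piRNA genes 3 were 4-fold higher and none lower. These were Ybx2, an RNA-storage protein gene (376 against 8.57 FPKM, difference 5.30), Piwil1, the PIWI gene of pachytene piRNAs (120 against 2.85, 4.97), and Pld6, the mitochondrial nuclease gene that acts early in piRNA processing (42.0 against 6.01, 2.61). At 2-fold 9 of 18 were higher and 1 was lower, where 8.06% and 8.43% of all genes were. Ddx4, by which both germ cell scales divide, was itself among the 9, with a difference of 1.12. How many of the 9 would pass on those scales was not read. Of the 19 other Tudor genes 1 was 4-fold higher, Tdrd12, a helicase gene of the piRNA pathway (72.5 against 16.1 FPKM), and 1 was lower, the chromatin reader gene Phf20l1 (8.79 against 41.4, -2.11). At 2-fold 3 of 19 were higher and 4 were lower, and the median was -0.23. None of the 7 arginine methylation genes reached 4-fold, 1 was 2-fold higher, and the median was 0.06. Prmt5, the main enzyme of that mark, stood at 60.5 against 40.3 FPKM.

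The partners of the Tudor proteins differed among themselves at day 14 too. In P14 KIT against P14 THY1, Piwil1 (8.32 against 120 FPKM, difference -3.70) and Ybx2 (29.96 against 376, -3.61) were 4-fold lower. Tex15, a gene of meiotic repair and transposon silencing, was 4-fold higher (231 against 51.8, 2.14). Of all genes 3.16% were 4-fold lower and 0.201% were higher. The median over the 18 genes was -0.78. Piwil2, which binds TDRD1, stood at 123 against 232 FPKM (-0.91). No other Tudor gene and no arginine methylation gene reached 4-fold, with medians of -0.09 and -0.06. Between P12 and P7 KIT, Ybx2 (25.8 against 5.25 FPKM) and Tex15 (396 against 92.0 FPKM) were 4-fold higher, as were 0.416% of all genes. Mybl1, which encodes the transcription factor of pachytene piRNA genes, stood at 17.0 FPKM in P12 THY1, 34.7 in P12 KIT, 43.2 in P14 THY1 and 23.4 in P14 KIT.

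**Figure D5:**
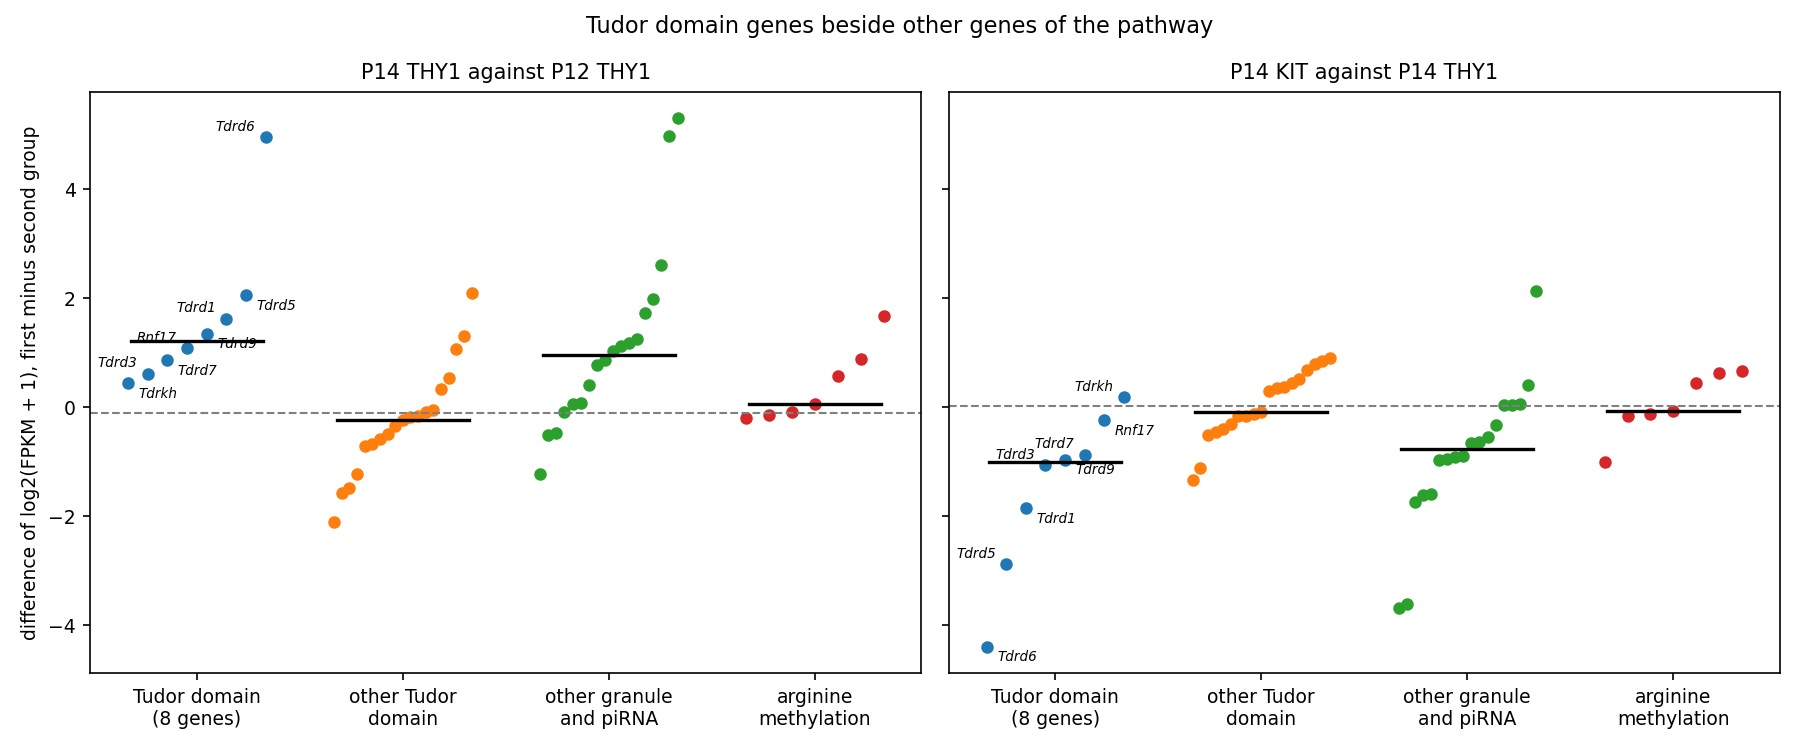
Difference of log2(FPKM + 1) (vertical axis) for P14 THY1 against P12 THY1 (left) and P14 KIT against P14 THY1 (right), with 1 point per gene in 4 lists, sorted by value within a list. Bars are list medians and the dashed line is the median of 14200 genes; both panels share P14 THY1, and the 8 Tudor genes have medians of 1.21 and -1.02.

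By pairs, the 8 genes did not share 1 pattern. Over the 28 pairs the median r of log2(FPKM + 1) across the 11 groups was 0.57, with 16 pairs above 0.5, and without P14 THY1 it was 0.24, with 8 pairs above 0.5. Tdrkh and Rnf17 had r = 0.80 (0.85 without P14 THY1), Tdrd1 and Tdrd7 0.87 (0.76), and Tdrd6 and Tdrd9 0.81 (0.50). Tdrd3 and Tdrkh had a negative r, -0.76 (-0.90). In P0 THY1 Tdrd3 was at its highest (45.3 FPKM) and Tdrkh at its lowest (4.53 FPKM). How far this r rests on that group is not known, because r without P0 THY1 was not computed. Among all 14200 genes, those nearest to Tdrd1 were Snrnp35 (r = 0.97), Igbp1b and Zdhhc12, and those nearest to Tdrd5 were Grtp1 (0.96), Ubxn10 and Syce1l. Nearest to Tdrd6 were Mfsd6l (0.99), 1700025E21Rik and 1700027A23Rik, and to Tdrd9 Atp8b5 (0.98), Ptpn20 and 1700016K19Rik. Tdrd7 was nearest to Wdr48 (0.96), Kat5 and Ddx19b, Rnf17 to Ipo11 (0.96), 1700001L05Rik and Hormad2, Tdrkh to Snapc1 (0.97), Slc25a35 and Hsf1, and Tdrd3 to B3gnt8 (0.96), 4833403I15Rik and Krt20. The r values are descriptions over 11 values that share libraries, and the nearest genes were picked for their high r. No other Tudor gene was among the 3 nearest of any member.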

How the data were processed

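RNA was sequenced from total RNA depleted of ribosomal RNA with directional libraries, per the labels' protocols. The submitters' processing notes name the build mm9 and the tools TopHat2 2.0.9, Cufflinks 2.1.1 and CASAVA, without saying which did what or with which annotation. FPKM values were deposited by the authors as 1 table with 1 value per group for 11 groups. Of 16 RNA libraries, 2 stand behind each of 5 columns, and how they were combined is not given in the sources used here. The 75th percentile was 17.2 to 18.2 FPKM in every column. The 8 bisulfite and 6 chromatin samples of the 30 samples were not analysed here.

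From the FPKM, differences of log2(FPKM + 1) were computed over the whole table with Python 3.11.15, numpy 2.4.6 and pandas 2.3.3, tested on simulated data, and plotted with matplotlib 3.10.9. A gene was counted at a difference of 2 or more (4-fold), or 1 or more (2-fold), with at least 5 FPKM in the higher group, in 13 comparisons. Shares of all genes are over 20889 genes, of which 14200, with all 8 members, reached 1 FPKM in 2 or more groups. Of those 14200, 11.1% were 2-fold higher in P14 than in P12 THY1. In P14 KIT against P14 THY1, 10.3% of them were 2-fold lower. A limma fit had been planned for replicate columns, and the table has none. All 8 members, pathway genes past 4-fold (at most 4 per comparison by size) and the 3 nearest genes per member were to be named. Stk31, Phf1, Arid4b, Kdm4b, Prmt5 and Piwil2 were chosen after their values were seen. The members and lists were chosen with earlier results of these data known. Henmt1, Prmt9 and Coprs were matched through older symbols, and RefSeq windows by symbol. Alternatives were other pseudocounts, filters, scalings and P7 VASA THY1 in place of P7 THY1.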

Additional observations from a re-analysis of the deposited data

How the results depend on the processing

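The table has 1 value per group, so no replicate could be left out. No paired analysis was possible because the columns carry no replicate numbers. Of 13 counts of Tudor genes at 4-fold, those of 6 comparisons changed under some alternative. P7 against P0 THY1 went from 0 to 2 at 2-fold, to 1 (Tdrkh) with quantile normalization or with P7 VASA THY1 in place of P7 THY1, and to 2 (Tdrd3 and Tdrd6) when scaled to Ddx4 and Dazl or to Ddx4 alone, an alternative chosen after seeing the data. P14 against P12 THY1 went from 2 to 5 at 2-fold, and to 1 (Tdrd6) with a pseudocount of 5, with quantile normalization and with both germ cell scalings. P14 KIT against P14 THY1 went from 2 to 4 at 2-fold and to 3 (with Tdrd1) when scaled to Ddx4 and Dazl. P0 OCT4-GFP against P0 THY1 went from 0 to 5 at 2-fold and to 1 (Tdrd3) with both germ cell scalings. P7 OCT4-GFP went from 0 to 2 at 2-fold against P7 THY1, and from 0 to 1 against P0 OCT4-GFP. A pseudocount of 0.1, no filter and an FPKM minimum of 1 changed none of the 13 counts. The causes were not tested, and without read counts the precision of low values, Tdrd6 above all, is unknown.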

Other observations

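Among the 19 other Tudor domain genes, 4 were 2-fold lower and 3 were 2-fold higher (Tdrd12, Stk31 and Phf1) in P14 than in P12 THY1, and 4 were 2-fold lower and none higher in P14 than in P12 KIT. The lower genes were the same 4 in both. They were Phf20l1, Arid4a, Arid4b and Kdm4b, which encode chromatin proteins, and these 2 comparisons share no group. Phf20l1 stood at 41.4 and 8.79 FPKM in P12 and P14 THY1 and at 43.1 and 16.0 FPKM in P12 and P14 KIT. Arid4a stood at 14.2 and 4.42 FPKM in THY1 and at 16.8 and 2.83 FPKM in KIT cells. The differences of Arid4b were -1.59 in THY1 and -1.06 in KIT cells, and those of Kdm4b were -1.23 and -1.26. At 2-fold lower the table as a whole had 8.43% of genes in the THY1 step and 5.26% in the KIT step. At 2-fold higher it had 8.06% and 2.6%. Younger groups of 1 library were low too. In P0 OCT4-GFP, P7 VASA THY1, P7 OCT4-GFP and P7 ID4-GFP, Arid4a stood at 6.81, 6.48, 5.76 and 8.97 FPKM. Phf20l1 stood at 11.7, 14.6, 8.75 and 8.51 FPKM in these groups. For both genes every group of 1 library lay below every group of 2, which was not so for Arid4b and Kdm4b. Each day 14 group is 1 library and each day 12 group stands for 2, so age and library cannot be told apart, and the genes were chosen after their values were seen.

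As deposited, Stk31, a kinase gene with a Tudor domain, and Tdrd12 had their highest level in P14 THY1 and their lowest in P0 THY1, as Tdrd1 did. On neither germ cell scale was P0 THY1 the lowest group of Tdrd1, and Stk31 and Tdrd12 were not read on those scales. Stk31 stood at 163 FPKM in P14 THY1 and 137 FPKM in P0 OCT4-GFP, its highest values, and at 36.0 FPKM in P0 THY1, its lowest. Tdrd12 stood at 72.5 FPKM in P14 THY1 and 49.0 FPKM in P0 OCT4-GFP, and at 15.7 FPKM in P0 THY1. Both were 2-fold higher in P14 than in P12 THY1, where 8.06% of all genes were. Stk31 had a difference of 1.06, just past the 2-fold rule, and Ddx4, the scaling gene, had 1.12. Stk31 was chosen after its values were seen.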
